A study of Bos taurus with 11 samples.

Results

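The miRNAs *miR-146a* and *miR-146b* (bta-miR-146a and bta-miR-146b) form a family of 2 members, which were chosen by name and are 2 of the 796 mature miRNAs in the count table of bovine mammary gland (MG). Small RNA was sequenced from MG biopsies of 5 Holstein and 6 Montbéliarde dairy cows, with 1 library per cow, to compare the miRNA content of the gland between the breeds. All cows were in mid-lactation and received the same diet. A further Holstein cow had mastitis and was left out by the study. Each biopsy was a piece of whole tissue from the rear udder, so that its RNA came from every cell type present. Libraries are named here by their tags, CNLX1 to CNLX9 for Holstein and CNLX13 to CNLX23 for Montbéliarde. Whether the tags follow the order in which libraries were made is not stated, and such an order cannot be told apart from breed.

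The miR-146 family is best known from the innate immune response. Transcription of the *miR-146a* gene is induced by NF-κB. The mature miRNAs of the family repress TRAF6 and IRAK1, adaptor and kinase downstream of toll-like receptors, which closes a negative feedback loop for *miR-146a*. The members come from separate genes and their mature forms differ only near the 3′ end. They are expressed in leukocytes as well as in epithelial and stromal cells.

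In the RefSeq annotation of the assembly ARS-UCD2.0, which is not the assembly used for the counts, the genes *MIR146A* and *MIR146B* are on different chromosomes. Neither lies inside another annotated gene. The nearest protein-coding genes are *PTTG1* and *ATP10B* for *MIR146A*, and *CUEDC2* and *C26H10orf95* for *MIR146B*. Coordinates are not given because the assemblies differ.

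The miRNA counts of a library summed to 7431936 to 16808976 for Holstein (median 10786816) and 6087865 to 11395785 for Montbéliarde (median 9107961). All 6 epithelial miRNAs of the marker list that were found in the table (*miR-200a*, *miR-200b*, *miR-200c*, *miR-141*, *miR-429* and *miR-205*) were detected in every library. The Montbéliarde libraries CNLX15 and CNLX21 stood apart in these markers. Their mean log2 epithelial level was 10.21 and 10.69, against 11.15 to 11.47 in the Holstein libraries. CNLX15 also had the highest levels of the stromal list (10.63) and of the leukocyte list (8.03), followed by CNLX21 in both (10.01 and 7.53). In whole tissue, fewer cells of a type and less RNA per cell cannot be told apart.

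*MiR-146b* had the higher mean of the members in both breeds and varied more between libraries. Its normalized read count, which is the raw count divided by the size factor of the library, was 2420 in CNLX1, 4877 in CNLX3, 6915 in CNLX5, 6585 in CNLX7 and 2641 in CNLX9 (Holstein). In the 6 Montbéliarde libraries the lowest value was 4792 (CNLX23), the median 9267 and the highest 39448 (CNLX15). CNLX15 stood above every other library, followed by CNLX21 with 17378 and CNLX13 with 12150. These 3 Montbéliarde libraries were above the highest Holstein library, while the other 3 lay within the Holstein range. CNLX1 and CNLX9 were below the lowest Montbéliarde library. The breeds thus overlapped, whereas 2% of the 550 tested miRNAs did not overlap between the breeds.

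*MiR-146a* was more even. Its normalized read count was 3292 in CNLX1, 3978 in CNLX3, 3272 in CNLX5, 3813 in CNLX7 and 3005 in CNLX9 (Holstein), and it ran from 2869 (CNLX19) through a median of 3506 to 7913 (CNLX15) in Montbéliarde. The same pair of libraries, CNLX15 and CNLX21 (5802), were the only ones above the highest Holstein value. Of the other Montbéliarde libraries, 2 lay within the Holstein range and 2 below it.

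**Figure D1:**
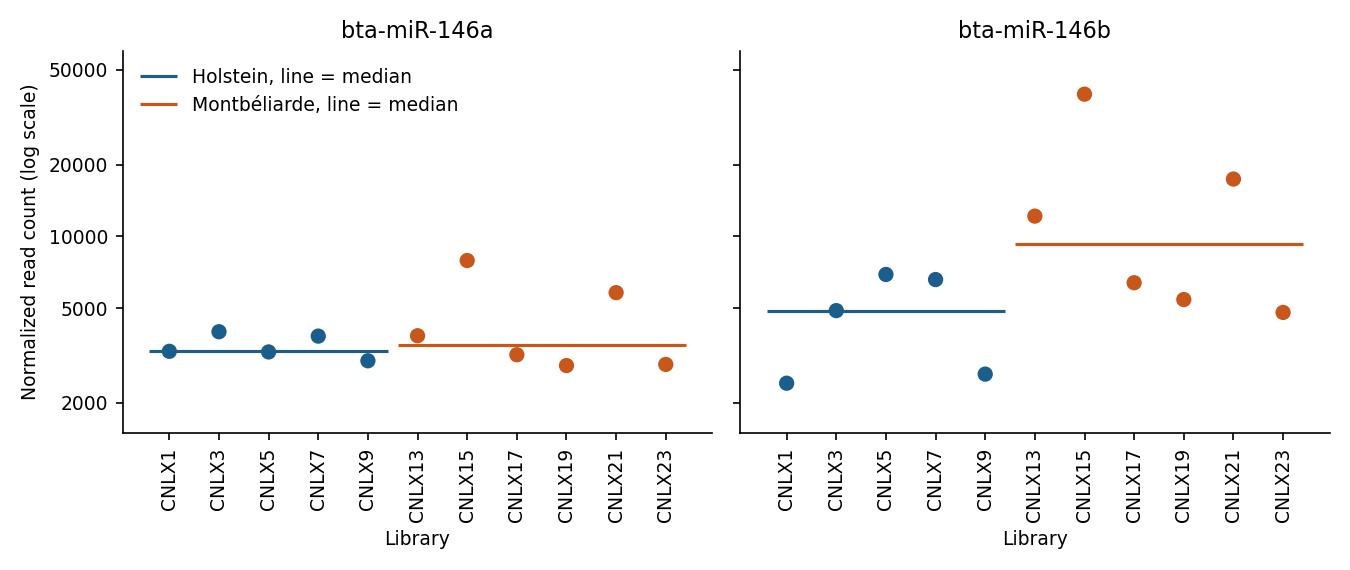
Normalized read counts of bta-miR-146a (left) and bta-miR-146b (right) in each library, on a log axis shared by both panels. Points are libraries, coloured by breed, and lines are breed medians. For miR-146b, 3 Montbéliarde libraries lie above all Holstein libraries and CNLX15 is the highest at 39448, and for miR-146a only CNLX15 and CNLX21 lie above the Holstein range.

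The members were neither rare nor among the leading miRNAs of the gland. By mean normalized read count over the 11 libraries, *miR-146b* ranked 55th of 796, between *miR-1468* (10515) and *miR-29a* (9900). *MiR-146a* ranked 73rd, between *miR-24-3p* (5046) and *miR-532* (3965). Within single libraries, *miR-146b* ranked from 26th in CNLX15 to 84th in CNLX1 and CNLX9. *MiR-146b* took 0.345% of the counted reads in CNLX15 (Wilson 95% interval 0.342 to 0.349%) and 0.0255% in CNLX1 (0.0246 to 0.0265%). These intervals cover counting error only and were far narrower than the distance between the libraries. The lowest raw count of either member in any library was 2027, that of *miR-146b* in CNLX9.

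In the edgeR test, neither member passed the adjusted threshold of 0.05 between the breeds. Holstein cows had a mean normalized read count of *miR-146b* of 4688 ± 2117 (SD, n = 5) and Montbéliarde cows of 14263 ± 13254 (SD, n = 6), a ratio of 3.04 between the means and of 1.90 between the medians. Without CNLX15 the mean of the other 5 Montbéliarde libraries was 9226 and the ratio of the means 1.97. Without any other single library the ratio of the means was 2.71 to 3.45. Without CNLX13, CNLX15 or CNLX21 the ratio of the medians was 1.31, and without CNLX17, CNLX19 or CNLX23 it was 2.49. Without 1 Holstein library the ratio of the medians was 1.62 to 2.47. Its log2FC, Montbéliarde over Holstein, was 1.58 with a standard error of 0.53 and an adjusted p of 0.209 in the quasi-likelihood test of edgeR, adjusted by the Benjamini-Hochberg method over all 550 tested miRNAs. The unadjusted p of that edgeR test was 0.00949, the 25th lowest of 550. At an unadjusted p of 0.05 or less, 7.64% of the tested miRNAs were higher in Montbéliarde, and *miR-146b* was among them, so that 1 of the 2 members stands against that background. Among the 114 miRNAs with a mean of at least 1000, none had a larger log2FC, and 8 of all tested miRNAs had. With the adjustment, edgeR called 0.364% of the tested miRNAs, 2 in number, and neither was a member.

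The call of *miR-146b* turned on the test. DESeq2's Wald test gave a log2FC of 1.61 and an adjusted p of 0.0470, with 4.24% of its 495 miRNAs called. DESeq2 without independent filtering gave an adjusted p of 0.0521. An exact permutation test of the log2 level gave a difference of 1.28 with a p of 0.0736. That permutation p was for this miRNA alone, with no adjustment over the others.

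For *miR-146a* the means were 3472 ± 407 for Holstein (SD, n = 5) and 4416 ± 2035 for Montbéliarde (SD, n = 6), a ratio of 1.27 between the means and of 1.06 between the medians. Its log2FC was 0.34 with a standard error of 0.25 and an adjusted p of 0.551 in the same edgeR test, and 152 of the tested miRNAs had a larger log2FC. By the exact permutation test its log2 level differed by 0.22 with a p of 0.494.

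Libraries of one breed varied more in *miR-146b* than in *miR-146a*. The coefficient of variation of *miR-146b* was 45.2% in Holstein and 92.9% in Montbéliarde, and its highest value was 2.86 times its lowest in Holstein and 8.23 times in Montbéliarde. For *miR-146a* the coefficient of variation was 11.7% and 46.1%, and the highest value was 1.32 and 2.76 times the lowest. Without CNLX15, the coefficient of variation in Montbéliarde was 58.7% for *miR-146b* and 33% for *miR-146a*, and the highest value was 3.63 and 2.02 times the lowest. These spreads between the breeds were not tested. On the log2 scale, the spread of *miR-146b* around its breed means (SD 0.99) was the 4th largest among 214 miRNAs with a mean of at least 100 counts, whereas that of *miR-146a* (SD 0.45) was the 62nd, with a median of 0.34 over these miRNAs.

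The balance between the members was compared by their ratio within each library, in which the scaling of the library cancels. How reads matching both members were counted is not given in the sources used here, and its part in the ratio was not tested. For each read of *miR-146a* there were 0.735 reads of *miR-146b* in CNLX1, 1.23 in CNLX3, 2.11 in CNLX5, 1.73 in CNLX7 and 0.879 in CNLX9 (Holstein). In Montbéliarde the ratio was 3.18 in CNLX13, 4.99 in CNLX15, 2.0 in CNLX17, 1.89 in CNLX19, 3.0 in CNLX21 and 1.65 in CNLX23. *MiR-146b* exceeded *miR-146a* in all 6 Montbéliarde libraries and in 3 of the 5 Holstein libraries. Again 3 Montbéliarde libraries were above the highest Holstein ratio and the other 3 within the Holstein range, and 3 Holstein libraries were below the lowest Montbéliarde ratio.

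The geometric mean of the ratio was 1.24 in Holstein and 2.58 in Montbéliarde. The mean log2 ratio was 0.31 ± 0.64 (SD) for Holstein and 1.37 ± 0.60 for Montbéliarde, a difference of 1.06, with a p of 0.0303 in a two-sided exact permutation test of the libraries, whose number of arrangements was 462. The smallest p that this test can give is 0.00433. As a share of the reads of both members, *miR-146b* took 55.1 ± 10.8% in the 5 Holstein and 71.5 ± 7.96% in the 6 Montbéliarde libraries (SD). Without 1 library the difference in the log2 ratio stayed between 0.87 and 1.26, but its p depended on which library was left out. A test on fewer libraries has fewer arrangements, and without CNLX3 the difference was still 1.06. The p of the exact permutation test was above 0.05 when CNLX1, CNLX3 or CNLX9 (0.0667 each) or CNLX13, CNLX15 or CNLX21 (0.0556 each) was left out, and it was 0.111, with a difference of 0.77, without both CNLX15 and CNLX21. With the epithelial, stromal or leukocyte level as a covariate, the breed difference of the log2 ratio was 0.72, 0.74 and 0.86, given as values with no test.

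**Figure D2:**
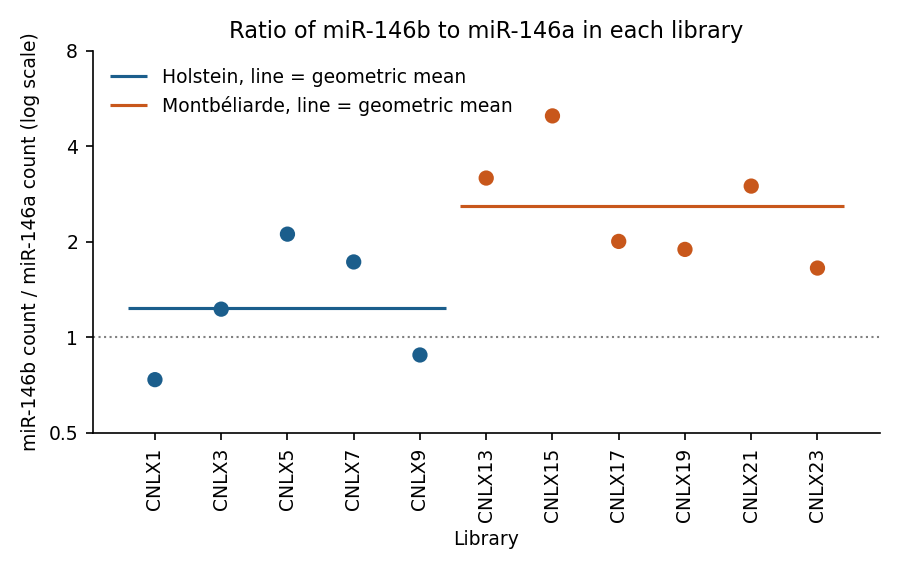
Ratio of the raw counts of miR-146b to miR-146a in each library, on a log axis, with points for libraries coloured by breed, solid lines at the geometric mean of each breed and a dotted line at a ratio of 1. The Montbéliarde libraries lie between 1.65 and 4.99 and the Holstein libraries between 0.735 and 2.11, and the 2 Holstein libraries under a ratio of 1 are CNLX1 and CNLX9.

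The pool of both members, in which the breeds also overlapped, was 8160 ± 2341 normalized reads for Holstein (SD, n = 5) and 18679 ± 15243 for Montbéliarde (SD, n = 6). Its lowest and highest values were 5646 and 10398 among the Holstein libraries, and 7693 and 47361 among the Montbéliarde libraries.

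Other miRNAs of the same pathway were read from a list of miRNAs known for induction by, or action on, NF-κB and toll-like receptor signalling. Of the 12 mature forms in the table, 11 were tested, none passed edgeR's adjusted threshold in either direction, and *miR-187*, with 4 counts in all, was left out by the filter. Their median log2FC was 0.43, beside 0.03 over all 550 tested miRNAs. Of the listed values 8 were positive and 3 negative, beside 288 and 262 over all tested miRNAs. *MiR-9*, an NF-κB-induced miRNA of monocytes, had the highest log2FC of the list (1.40, SE 0.58, adjusted p 0.309), at a level of only 17.9 ± 11.2 (SD, n = 5) and 49.6 ± 53.0 (SD, n = 6) normalized reads. *MiR-155*, which is induced along with *miR-146a* in activated macrophages, had a log2FC of 0.53 (adjusted p 0.396), and *miR-132*, another induced miRNA, 0.45 (adjusted p 0.505). *MiR-21-5p*, abundant in most tissues, had a log2FC of −0.01 (adjusted p 0.997). *MiR-125a*, *miR-125b* and *miR-147* had log2FC of 0.38, 0.45 and 0.43, and *miR-181b* and *miR-212* of −0.34 and −0.27.

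The lists of cell type markers were tested in the same way, and none of their miRNAs passed edgeR's adjusted threshold. Over all 550 tested miRNAs, 288 log2FC were positive and 262 negative. All 5 leukocyte miRNAs, which include both arms of *miR-142*, had positive log2FC with a median of 0.40. They ran from 0.16 for *miR-142-3p*, a pan-leukocyte miRNA, to 0.53 for *miR-155*, which with *miR-223* is also on the NF-κB list. *MiR-223*, the neutrophil and monocyte miRNA, had 133 ± 125 normalized reads for Holstein (SD, n = 5) and 190 ± 242 for Montbéliarde (SD, n = 6). Of the 5 stromal miRNAs, 4 were positive (median 0.58), among them *miR-143* (0.58, adjusted p 0.171), a miRNA of smooth muscle and fibroblasts, and *miR-214* (0.83, adjusted p 0.366). *MiR-145* was negative (−0.27, adjusted p 0.649). Of the 6 epithelial miRNAs, 5 were negative (median −0.21), led by *miR-141* (−0.74, adjusted p 0.217) and *miR-200c* (−0.61, adjusted p 0.322), which maintain the epithelial state. *MiR-429*, *miR-200b* and *miR-200a* had log2FC of −0.33, −0.10 and −0.04, and *miR-205* was positive (0.38, adjusted p 0.348). Both arms of the endothelial *miR-126* were negative (median −0.08), and the 3 erythroid miRNAs were positive (median 0.28).

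**Figure D3:**
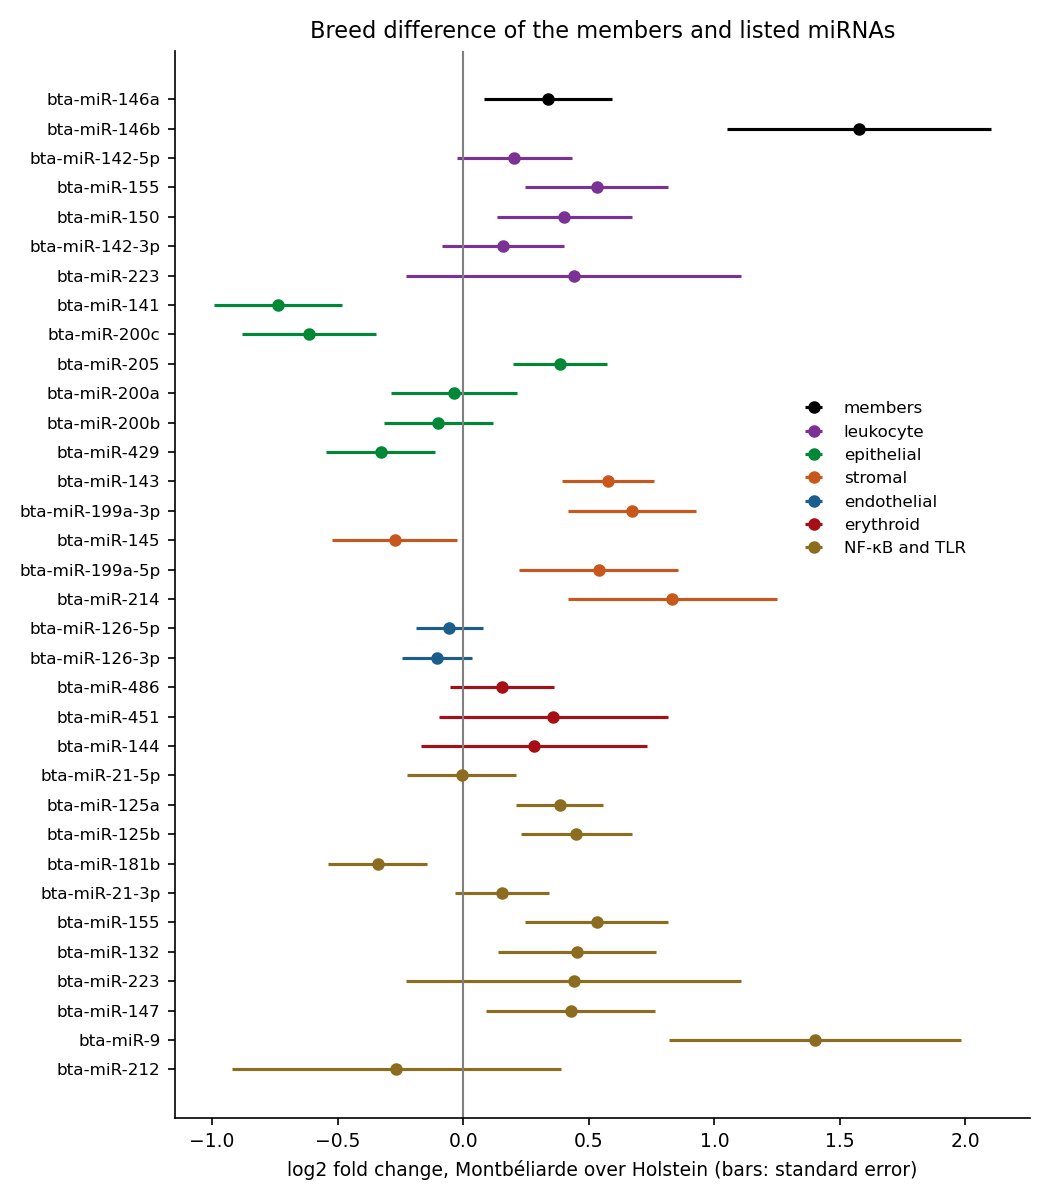
Log2 fold change, Montbéliarde over Holstein, from the edgeR fit over 550 miRNAs for the 2 members and the listed miRNAs, with bars of 1 standard error and colours for the lists. MiR-146b has the highest value at 1.58, followed by the low-abundance miR-9 at 1.40, and none of the values passed the adjusted threshold.

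Across the 11 libraries, the level of each member was set against that of the other and against the mean log2 level of the leukocyte, epithelial and stromal lists, which made 7 relations. Levels here are log2(TMM-scaled CPM + 1). *MiR-146a* and *miR-146b* were correlated with a Pearson's r of 0.85 (permutation p 0.00144, adjusted 0.00252) and a Spearman's rho of 0.66 (permutation p 0.0302, adjusted 0.0423). On values centred by breed r was 0.90. Without CNLX15 and CNLX21, the libraries farthest from the median, r was weaker at 0.38. With 1 library left out at a time, r ran from 0.70 to 0.88.

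The relations to the leukocyte and stromal lists were also weaker without CNLX15 and CNLX21, but kept their sign. With the leukocyte level, r was 0.91 for *miR-146a* (adjusted permutation p 0.00229) and 0.84 for *miR-146b* (adjusted permutation p 0.00272), and 0.61 and 0.42 without CNLX15 and CNLX21. With the stromal level, r was 0.93 and 0.89 (adjusted permutation p 0.00229 for both), and 0.46 and 0.54 without that pair. Spearman's rho with the leukocyte level was 0.83 (*miR-146a*) and 0.78 (*miR-146b*), with adjusted permutation p of 0.0193 and 0.0219, and with the stromal level it was 0.72 and 0.67, with adjusted permutation p of 0.0374 and 0.0423.

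The epithelial level ran the other way over all libraries. Its r was −0.84 with *miR-146a* (adjusted permutation p 0.00955) and −0.81 with *miR-146b* (adjusted permutation p 0.00531), but 0.50 and −0.04 without CNLX15 and CNLX21. The rank correlations with the epithelial level did not pass the threshold, with a rho of −0.30 for *miR-146a* (permutation p 0.370) and −0.57 for *miR-146b* (adjusted permutation p 0.0835). On values centred by breed, with CNLX15 and CNLX21 included, r of *miR-146a* was 0.90 with the leukocyte, −0.84 with the epithelial and 0.93 with the stromal level, and r of *miR-146b* was 0.88, −0.75 and 0.89.

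**Figure D4:**
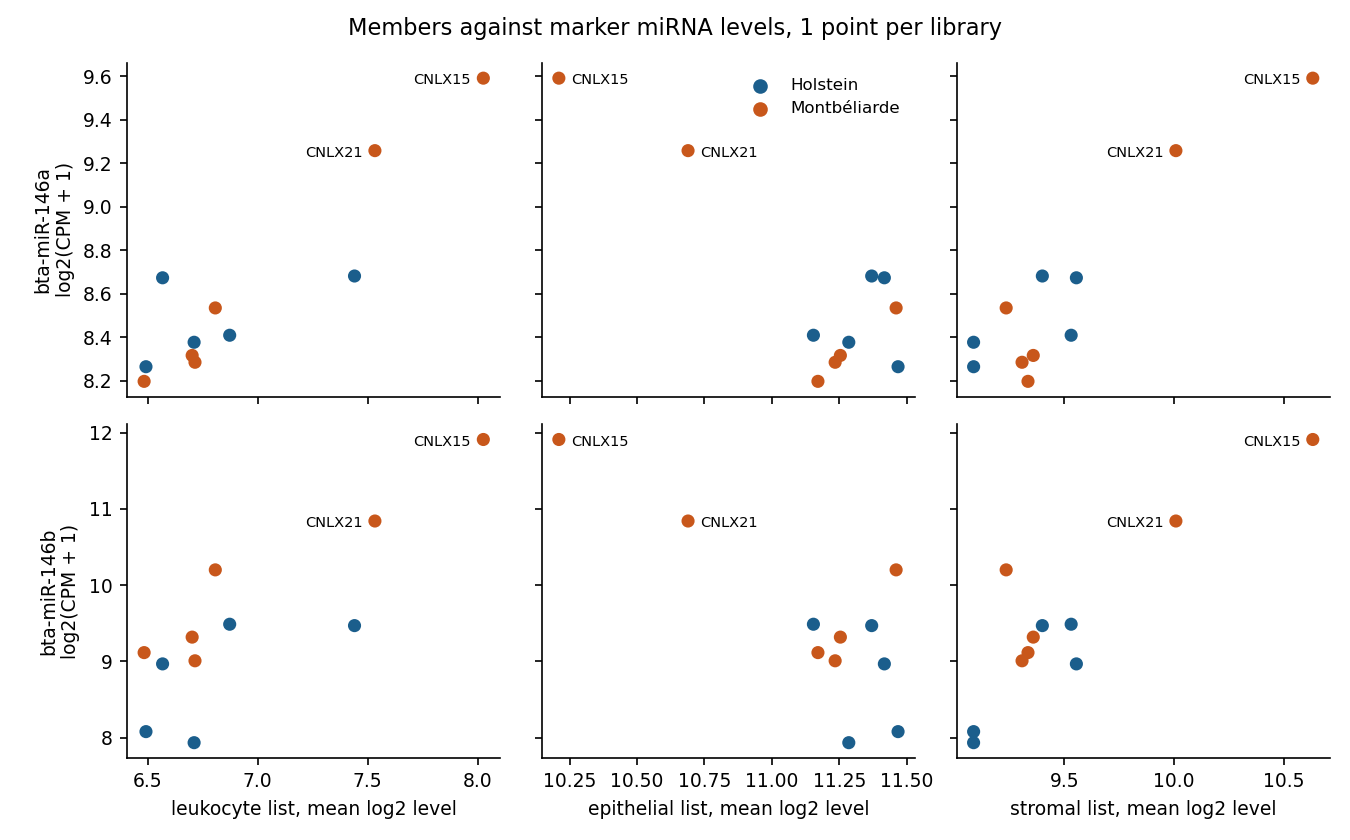
Log2 level of miR-146a (top row) and miR-146b (bottom row) against the mean log2 level of the leukocyte, epithelial and stromal lists, with 1 point per library coloured by breed. CNLX15 and CNLX21 are named and have the highest levels of each member, although the leukocyte level of CNLX21 (7.53) is near that of CNLX7 (7.44). With them included, r ranges in size from 0.81 to 0.93.

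The levels of the marker lists overlapped between the breeds. The leukocyte level was 6.82 ± 0.38 for Holstein (SD, n = 5) and 7.04 ± 0.60 for Montbéliarde (SD, n = 6), the stromal level 9.33 ± 0.23 and 9.65 ± 0.56, and the epithelial level 11.15 to 11.47 and 10.21 to 11.46 (lowest to highest library). Summed over each list, leukocyte miRNAs had 18031 to 26952 normalized reads for Holstein and 17229 to 39422 for Montbéliarde. The sums were 367535 to 466746 and 180093 to 469496 for epithelial miRNAs, and 1511910 to 2303540 and 1926890 to 3866930 for stromal miRNAs. Each sum came mostly from 1 miRNA. In Holstein, *miR-142-5p* had a mean of 19815 of the 22613 leukocyte reads, and *miR-141* 310902 of the 414527 epithelial reads. Of the stromal sum, *miR-143* had a Holstein mean of 1838350. None of the markers in these lists was at 0 in any library. With the epithelial, leukocyte or stromal level as a covariate in the edgeR fit, the log2FC of *miR-146b* was 0.69, 0.88 and 0.75. The standard errors were 0.44, 0.26 and 0.30, beside 0.53 without a covariate. The adjusted p of edgeR was 0.639, 0.151 and 0.269, beside 0.209 without a covariate. For *miR-146a* the log2FC was −0.11, 0.05 and −0.05. Without CNLX15 and CNLX21, the log2FC was 0.69 for *miR-146b* (adjusted p 0.494) and −0.05 for *miR-146a* (adjusted p 0.926). The part of the tissue make-up in the breed difference was not tested.

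**Figure D5:**
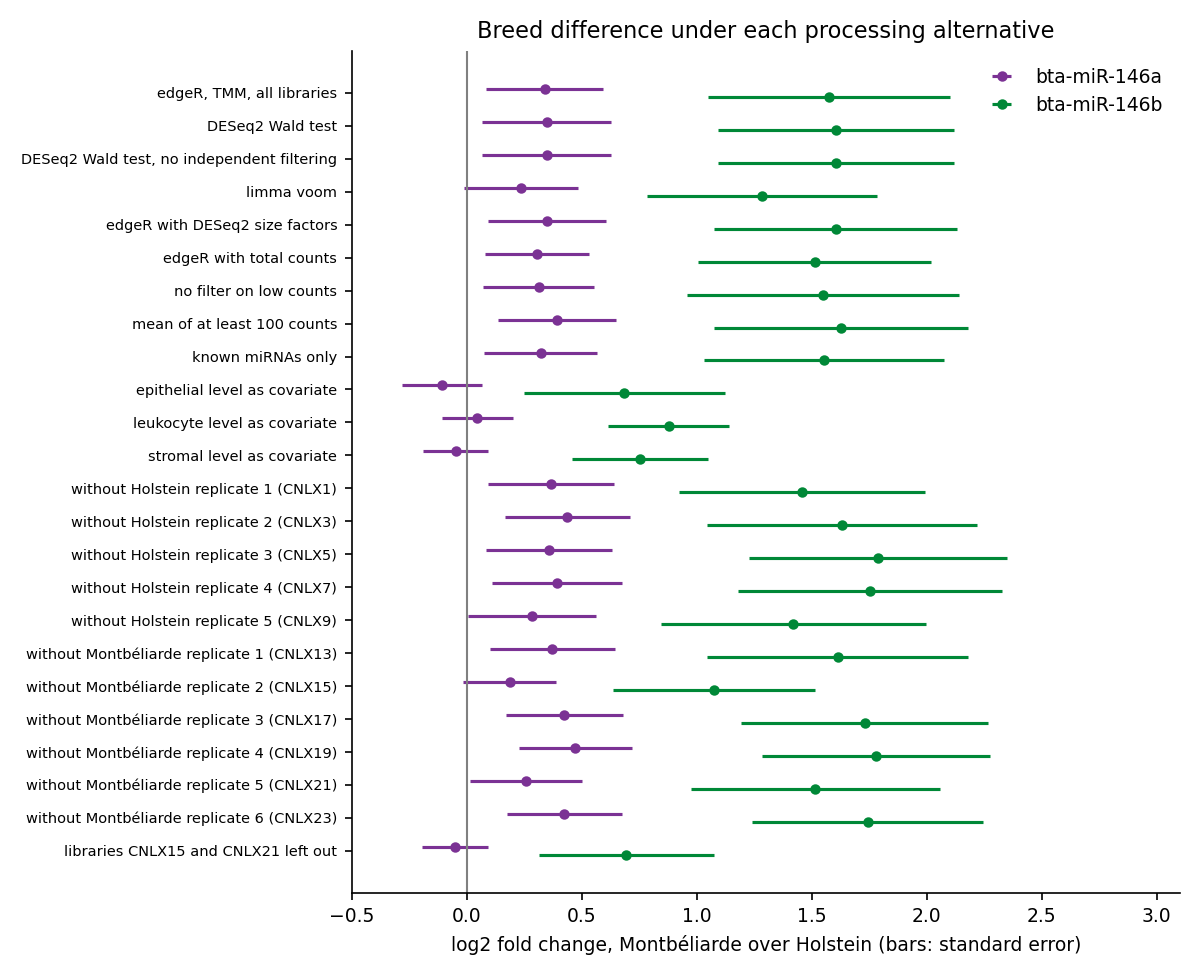
Log2 fold change, Montbéliarde over Holstein, of miR-146a and miR-146b under each processing alternative, with bars of 1 standard error. MiR-146b stays positive throughout, from 0.69 to 1.79, whereas miR-146a goes from −0.11 to 0.47 and changes sign with the epithelial or stromal covariate and without CNLX15 and CNLX21.

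The miRNAs nearest in pattern were found by Pearson's r of log2 levels over the 11 libraries, among 213 other miRNAs with a mean of at least 100 counts. All of these values share the libraries CNLX15 and CNLX21 and are descriptions. For *miR-146a* they were *miR-214* (r = 0.95), *miR-99a-5p* (0.93), *miR-222* (0.91), *miR-199a-5p* (0.91) and *miR-127* (0.90), of which *miR-214* and *miR-199a-5p* are on the stromal list. *MiR-146b* came 12th for *miR-146a*. For *miR-146b* they were *miR-3604* (0.93), *miR-199a-3p* (0.93), *miR-504* (0.92), a predicted miRNA of chromosome 21 (0.92) and *miR-99a-5p* (0.91), and *miR-146a* came 18th. *MiR-3604* and *miR-199a-3p* are uncertain as separate values, since their counts stood in a ratio of 0.976 to 0.988 in every library. No other miRNA had an SD of its log2 count ratio to either member under 0.05 over the libraries. The lowest SD was 0.19 for *miR-146a*, with *miR-99a-5p*, and 0.45 for *miR-146b*, with the predicted miRNA.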

How the data were processed

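MG biopsies of 5 Holstein and 6 Montbéliarde cows were compared, 1 small RNA library per cow, grouped by the breed in the labels. The authors trimmed adaptors, kept reads of 15 to 40 nt, quantified them with ncPRO-seq and miRDeep2 against miRBase and an earlier bovine assembly, and deposited raw read counts per mature miRNA. How reads matching several miRNAs were counted is not given in the sources used here. The 11 deposited columns of normalized counts were not used, nor were the columns of the authors' own comparison, which hold log2 fold changes, p-values and adjusted p-values.

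Raw counts were tested with edgeR 4.0.16 in R 4.3.3 (TMM, glmQLFit with robust fitting, glmQLFTest, Benjamini-Hochberg) for the 550 miRNAs with at least 10 summed counts. DESeq2 1.42.0 and limma 3.58.1 were alternatives. Normalized read counts are raw counts divided by DESeq2 size factors. Exact permutation tests were two-sided, as 2 times the smaller one-sided p, and correlations used 100000 permutations. Relations, lists and covariates used log2(TMM-scaled CPM + 1). The fits were tested on simulated data. The 25 within-breed pairs of libraries all differed beyond counting error.

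Named were the members, the listed miRNAs, the 5 miRNAs nearest in pattern and the neighbours in level. The planned search for other miRNAs with the same seed was not run, because no mature sequences were used here. The members and lists were chosen with earlier results of these data known. *MiR-203*, on the epithelial list, was not analysed here.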

Additional observations from a re-analysis of the deposited data

Results flagged for a closer look

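Among the 6 Montbéliarde libraries, *miR-146b* had 39448 normalized reads in CNLX15. The gap to the next library, CNLX21 with 17378, was larger than Dixon's 95% limit for the range of the group. On these linear counts the gap over the range was 0.637, against a limit of 0.625. The log2 levels of the members were left out of this check. Of the 20 groups of values tested in this way, 1 was beyond the limit, and chance alone gives about 1 in 20. Without CNLX15 the log2FC of *miR-146b* was 1.07, and with it 1.58.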

How the results depend on the processing

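The direction of the breed difference of *miR-146b* held in all 24 alternatives tried, and its side of the threshold in 23 of them. DESeq2's Wald test was the exception, with a log2FC of 1.61 and an adjusted p of 0.0470. The exact permutation test among the 24 gave an unadjusted p, unlike the others. *MiR-146a* missed the threshold in all 24 and turned negative with the epithelial covariate (−0.11), with the stromal covariate (−0.0493) and without CNLX15 and CNLX21 (−0.0521). The cause was not tested. Against 2 miRNAs called by edgeR, DESeq2 called 21 and, without independent filtering, 10. EdgeR called 0 with DESeq2 size factors, with 82 at an unadjusted p of 0.05 or less, 1 with scaling by total counts and 4 with the epithelial covariate. Leaving out 1 library gave 0 to 6 calls. Of the listed miRNAs, 0 to 1 was called when 1 library was left out, the one being *miR-141* without CNLX13. The log2 ratio of the members differed by 0.87 to 1.26 without 1 library and by 0.77 without CNLX15 and CNLX21. Without 1 library, r with the epithelial level ran from −0.88 to −0.60 for *miR-146a* and from −0.91 to −0.57 for *miR-146b*. The exact permutation test of the log2 level, the stromal covariate, the covariates of the ratio the joint removal of CNLX15 and CNLX21 and the levels and spread without single libraries were chosen after seeing the data. No paired analysis was possible because the breeds are different cows and no label pairs them. With counts of at least 2027 per library, counting error was small. The spread between libraries limited the precision, and with 1 library per cow it cannot be split into cow, biopsy and preparation.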
